A study of Mus musculus with 8 samples.

Results

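The 9 genes described here encode receptors for the Fc part of antibodies and the signalling chains and kinases that work with them: the Fc gamma receptors Fcgr1, Fcgr2b, Fcgr3 and Fcgr4, the adaptors Fcer1g and Tyrobp, and the tyrosine kinases Syk, Lyn and Btk. They were taken by gene symbol from the deposited expression table, which holds 48500 genes, and all 9 were found there. RNA had been sequenced from leukaemia stem cells of mouse bone marrow, about 10000 cells per library, sorted on GFP and c-Kit (GFP+ c-Kit+) and on the lack of the granulocyte antigen Gr-1 (Gr-1-). The libraries are called KO1 to KO4 and WT1 to WT4 after their titles. The Nynrin-KO group held 4 libraries from Nynrin-/- mice and the WT group 4 libraries from Nynrin+/+ mice, and in both groups the acute myeloid leukaemia was driven by HOXA9 and MEIS1. The labels do not state the age or sex of the mice, the deleted part of Nynrin, or whether each library came from a separate mouse, and every p-value therefore refers to the spread among the libraries, which may be technical.

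Immune receptors of this kind bind antibody-coated targets outside the cell and have no enzyme activity of their own. The activating receptors pair with an adaptor whose tail carries an immunoreceptor tyrosine-based activation motif (ITAM), in which a pair of tyrosines is phosphorylated by SRC family kinases such as LYN. SYK then docks on the phosphorylated pair and passes the signal on, in part through BTK and phospholipase C gamma. FCGR2B instead carries an inhibitory motif (ITIM), which recruits phosphatases that stop the signal. Myeloid cells depend on this pathway for phagocytosis and for the release of mediators.

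The coding bases of these motifs are shown because the adaptors and the inhibitory receptor signal through them. They were read from the GENCODE M21 transcripts (mouse assembly GRCm38), in the longest reading frame of each coding transcript. Capitals mark the codons of the tyrosines and of the leucines or isoleucines in the ITAM, and in the ITIM the first hydrophobic residue, the tyrosine and the last hydrophobic residue. A match to the ITAM pattern was found in Fcer1g and Tyrobp and in none of the other 7 genes. In Fcer1g it lay at codons 65 to 79 of 86 and was present in 1 of 2 coding transcripts, and in Tyrobp at codons 92 to 106 of 114 and in 2 of 2. The ITIM of Fcgr2b lay at codons 317 to 322 of 340 and in 4 of 4 coding transcripts. The ITIM pattern searched is loose: it also matched in Fcgr1, Fcgr4, Fcer1g, Tyrobp and Lyn, and a match describes the letters alone.
Fcer1g ITAM: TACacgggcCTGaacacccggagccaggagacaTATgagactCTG
Tyrobp ITAM: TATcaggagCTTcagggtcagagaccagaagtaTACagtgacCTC
Fcgr2b ITIM: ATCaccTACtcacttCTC

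Levels are given as FPKM, read counts scaled by gene length and by library depth, so that genes of different length can be set side by side. Recovered depth was 1826122 to 28691542 reads in the Nynrin-KO libraries and 1961686 to 33075467 reads in the WT libraries, with KO3 and WT3 the shallowest. Nynrin itself, the deleted gene, was near the limit of detection in every library and does not check the labels: its level was 0.169, 0.0982, 0.437 and 0.121 FPKM in KO1 to KO4, against 0.0080, 0.226, 0.271 and 0.286 FPKM in WT1 to WT4. Of 8 listed markers of the sorted cells 2 rose, Hoxa9 and Meis1, and 3 fell, Cd34, Flt3 and Mpo, by the test described below. Among all genes tested 14.0% were called as higher and 13.8% as lower in Nynrin-KO. The groups overlapped in Hoxa9 and Mpo (limma adjusted p = 0.0397 and 0.0459). Meis1 reached 1 FPKM in the Nynrin-KO libraries alone and entered the test through them. Kit stood at 2.92 to 4.91 FPKM in Nynrin-KO and 2.63 to 6.395 FPKM in WT, and Cd34 at 5.54 to 7.30 FPKM in Nynrin-KO and 55.7 to 151 FPKM in WT. Ly6g, part of the Gr-1 antigen against which the cells were sorted, was at 93.5 to 264 FPKM in Nynrin-KO and 0.707 to 49.3 FPKM in WT. The Y-linked Ddx3y was at 18.2 to 20.7 FPKM in KO2 to KO4 and at most 0.111 FPKM in WT, and Xist was at most 0.366 FPKM in KO2 to KO4 and at 15.2 to 26.5 FPKM in WT, while KO1 held both (Ddx3y 2.18 and Xist 12.7 FPKM). Sex and genotype cannot be told apart in these libraries. In bulk libraries such as these, more cells of a type and more RNA of a gene per cell cannot be told apart.

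The 9 genes fell into a part that rose in Nynrin-KO and a part that did not pass the test. The receptors Fcgr1 and Fcgr4 and the kinases Syk and Lyn rose, and in each of them every Nynrin-KO library stood above every WT library. Fcgr2b, Fcgr3, Fcer1g, Tyrobp and Btk did not pass, and none of the 9 fell. Tests were made with limma on log2(FPKM + 1) over the whole table, with Benjamini-Hochberg adjustment over the 12524 genes that reached 1 FPKM in at least 4 of 8 libraries, and a gene was called at an adjusted p under 0.05. Of all genes tested 27.9% were called, 14.0% as higher and 13.8% as lower in Nynrin-KO, and groups did not overlap for 31.7%, with Nynrin-KO above WT for 16.7%. The median log2 fold change was 0.50 over the 9 genes and -0.03 over all genes tested.

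**Figure D1:**
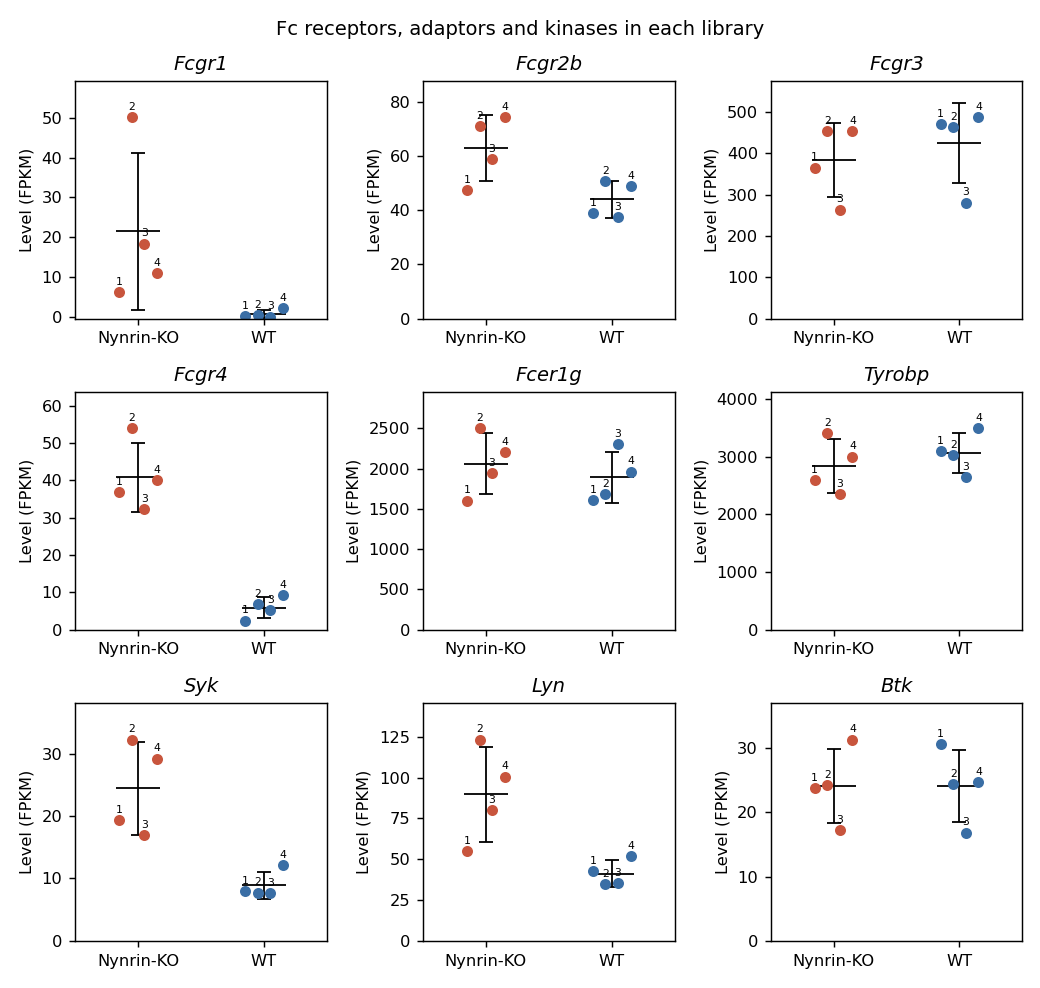
Level in FPKM of each of the 9 genes in the 4 Nynrin-KO libraries (left, red) and the 4 WT libraries (right, blue); small digits are replicate numbers, and bars give the mean and SD. In Fcgr1, Fcgr4, Syk and Lyn all Nynrin-KO points lie above all WT points, while the groups overlap in the other 5 genes.

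Fcgr4 encodes an activating receptor for mouse IgG2a and IgG2b found on neutrophils, monocytes and macrophages, and it had the smallest adjusted p of the 9 genes. The gene (ENSMUSG00000059089) lies on the plus strand at chr1:171018920-171029761. Its level was 36.8, 53.9, 32.2 and 40.1 FPKM in KO1 to KO4, against 2.45, 6.86, 5.27 and 9.24 FPKM in WT1 to WT4. The lowest Nynrin-KO library was thus above the highest WT library, WT4. The means of 40.8 ± 9.33 FPKM in Nynrin-KO and 5.96 ± 2.85 FPKM in WT (SD, n = 4 each) gave a log2 fold change of 2.67 (SE 0.33, limma adjusted p = 0.00157). The values rested on 438, 1561, 74 and 1446 reads in KO1 to KO4, and on 102, 61, 13 and 200 reads in WT1 to WT4. Fcgr4 passed the test under each of 21 alternatives, with log2 fold changes between 2.15 and 2.89.

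Fcgr1 encodes the high-affinity IgG receptor, whose expression in myeloid cells is known to be raised by interferon. The gene (ENSMUSG00000015947, chr3:96282909-96293969, minus strand) stood at 6.15, 50.2, 18.4 and 10.995 FPKM in KO1 to KO4, against 0.105, 0.328, 0 and 2.20 FPKM in WT1 to WT4. Among the WT libraries WT4 stood apart at the upper end, and KO2 held more than any other library. In WT the gene was near the limit of detection, with 9, 6, 0 and 98 reads in WT1 to WT4 against 151, 3000, 87 and 817 reads in KO1 to KO4. The 0 reads of WT3 allow a level of up to 0.591 FPKM, the value of 3 reads. Fcgr1 had means of 21.4 ± 19.9 FPKM in Nynrin-KO and 0.657 ± 1.03 FPKM in WT (SD, n = 4 each), with a log2 fold change of 3.54 (SE 0.60, limma adjusted p = 0.00412).

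The size of the Fcgr1 change depended on how low values were treated. Its log2 fold change was 5.40 with a pseudocount of 0.1 and 4.50 with voom on recovered reads, a fit that also weighted the libraries by quality. Fcgr1 entered the test because of its Nynrin-KO levels, since 1 WT library alone reached 1 FPKM. Its call was lost among the 5 libraries with a high level of the repeat-like gene model Gm10800, where limma gave a log2 fold change of 2.86 and an adjusted p = 0.0502. These 5 are KO1, KO3, WT2, WT3 and WT4, so this fit had fewer libraries in each group. Over all genes it called 994, against 3488 with all 8 libraries. The part of fewer libraries and of Gm10800 in calls lost here or below was not tested.

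Fcgr3, an activating low-affinity IgG receptor, was the most abundant of the 4 receptors in every library and did not pass the test. The gene (ENSMUSG00000059498, chr1:171051174-171064935, minus strand) stood at 366, 453, 264 and 454 FPKM in KO1 to KO4, against 470, 463, 281 and 487 FPKM in WT1 to WT4. The groups overlapped, and the lowest library of each group was its shallowest, KO3 and WT3. The means of 384 ± 90.2 FPKM in Nynrin-KO and 425 ± 96.7 FPKM in WT (SD, n = 4 each) gave a log2 fold change of -0.15 (95% interval -0.74 to 0.45, limma adjusted p = 0.714). The direction was not stable: with quantile normalization it was 0.53 (adjusted p = 0.0632), and without KO3 it was 0.02.

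Fcgr2b, the inhibitory receptor, leaned higher in Nynrin-KO without passing the test. Its level was 47.6, 71.0, 59.0 and 74.3 FPKM in KO1 to KO4, against 38.9, 50.8, 37.5 and 48.8 FPKM in WT1 to WT4 (ENSMUSG00000026656, chr1:170958617-170976547, minus strand). Only KO1 lay within the WT range, and the other 3 Nynrin-KO libraries were above it. The means were 63.0 ± 12.2 FPKM in Nynrin-KO and 44 ± 6.75 FPKM in WT (SD, n = 4 each), a log2 fold change of 0.50 (95% interval 0.03 to 0.97, limma adjusted p = 0.104). Quantile normalization moved it past the threshold, with a log2 fold change of 0.83 and an adjusted p = 0.0085.

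Fcgr2b and Fcgr3 share part of their sequence, which limits how well their reads can be told apart. Of the windows of 50 bases in the longest transcript of each gene, 166 were identical between them, 4.75% of those of Fcgr2b and 12.8% of those of Fcgr3. In all, 436 of 3495 windows of Fcgr2b (12.5%) recur in transcripts of 145 other genes, while those of Fcgr3 recur in Fcgr2b alone. The labels do not state how the authors treated reads that match several genes. In Fcgr1, Fcgr4, Fcer1g, Tyrobp, Syk and Btk no such window was found in a transcript of another gene.

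The makeup of the receptor mRNA was set out as the share of each receptor in the summed FPKM of the 4. Fcgr4 took 6.92% to 8.63% in Nynrin-KO and 0.48% to 1.69% in WT, and Fcgr1 took 1.35% to 8.0% in Nynrin-KO and 0% to 0.401% in WT. Fcgr3 took 70.7% to 80.2% in Nynrin-KO and 86.8% to 91.9% in WT. The share of Fcgr2b overlapped, at 10.4% to 15.8% in Nynrin-KO and 7.61% to 11.6% in WT. The 3 activating receptors together stood at 8.58, 7.85, 5.34 and 6.8 times the FPKM of Fcgr2b in KO1 to KO4, and at 12.1, 9.26, 7.63 and 10.2 times in WT1 to WT4. This ratio overlapped between the groups, and its lowest value within each was in KO3 and WT3, the shallowest libraries. The shares are descriptions of each library and were not tested.

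**Figure D2:**
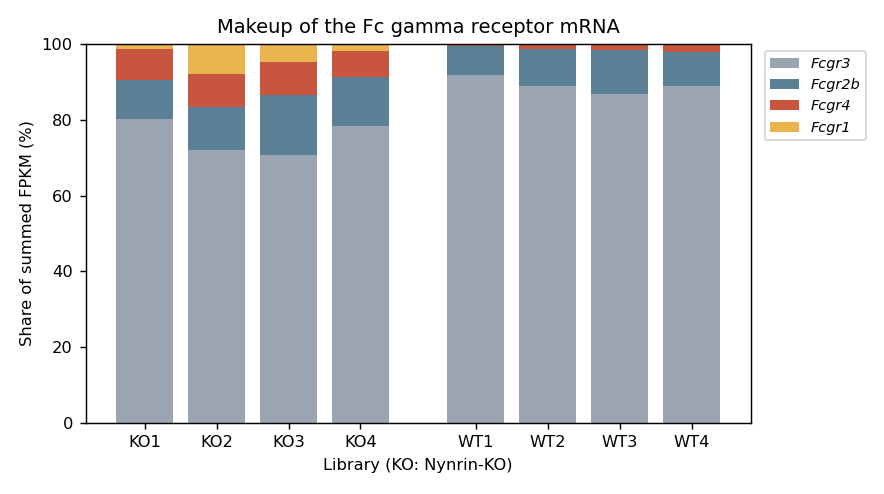
Share (%) of Fcgr3, Fcgr2b, Fcgr4 and Fcgr1 in their summed FPKM, 1 stacked bar for each library, Nynrin-KO on the left. The Fcgr4 band is 6.92% to 8.63% in Nynrin-KO and 0.48% to 1.69% in WT, and Fcgr3 is the largest band in each library.

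Fcgr2b, Fcgr4, Fcgr3 and Fcer1g lie in this order on chromosome 1, within 275.7 kb (GRCm38) that hold 11 protein-coding genes of the table. Of the 7 that were tested Fcgr4 and Apoa2, an apolipoprotein gene, were higher and Pcp4l1 was lower, and the other 4 were not called. Among all genes tested 14.0% were called as higher and 13.8% as lower. Apoa2 passed the filter through the Nynrin-KO libraries alone and stood at 2.59 FPKM in Nynrin-KO and 0.394 FPKM in WT, with a log2 fold change of 1.28 (limma adjusted p = 0.0421). Fcgr4 therefore rose between neighbours, Fcgr2b and Fcgr3, that did not pass the test.

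**Figure D3:**
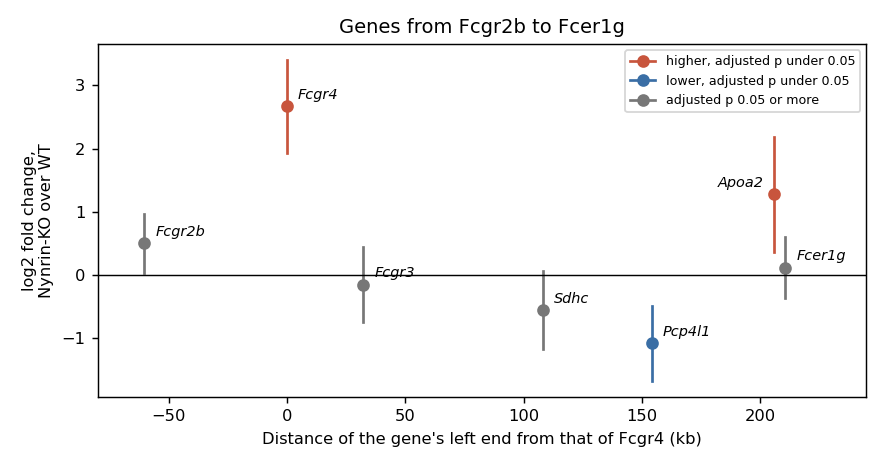
Log2 fold change (Nynrin-KO over WT, of FPKM + 1) with its 95% interval for the 7 tested protein-coding genes from Fcgr2b to Fcer1g, placed by distance in kb from Fcgr4. Fcgr4 is at 2.67, while Fcgr2b, Fcgr3 and Fcer1g lie between -0.15 and 0.50.

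Promoter sequence is shown for Fcgr4 and Fcgr1, which rose, and for Fcgr3, which did not pass. All 3 hold the same short motif just before a listed start. The 120 bases before the RefSeq start were taken from the GRCm38.p6 promoter table, and capitals mark GAGGAA on either strand, the core of the site bound by the myeloid factor PU.1. Their positions are chr1:171018806-171018925 on the plus strand for Fcgr4, chr3:96293970-96294089 on the minus strand for Fcgr1 and chr1:171059395-171059514 on the minus strand for Fcgr3. The Fcgr3 window lies inside the annotated gene, which on this strand begins at 171064935, and so precedes a downstream start. Another listed start of Fcgr3 had the motif 0 bases before it.
Fcgr4 promoter: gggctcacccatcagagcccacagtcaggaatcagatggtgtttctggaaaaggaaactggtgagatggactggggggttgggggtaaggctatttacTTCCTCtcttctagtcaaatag
Fcgr1 promoter: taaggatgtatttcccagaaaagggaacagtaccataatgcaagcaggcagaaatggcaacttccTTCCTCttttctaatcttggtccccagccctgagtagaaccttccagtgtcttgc
Fcgr3 promoter: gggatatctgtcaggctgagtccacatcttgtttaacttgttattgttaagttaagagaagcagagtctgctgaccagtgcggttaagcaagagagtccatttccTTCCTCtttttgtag
The motif ended 16 bases before the start in Fcgr4, 49 bases before it in Fcgr1 and 9 bases before it in Fcgr3, and 3 bases before the downstream of the listed starts of Syk. Of 32851 promoters in the table, 23.3% held it within 250 bases before the start. The windows of Fcgr2b, Fcer1g and Btk held no match, and Tyrobp and Lyn have no entry in the table. The STAT-type motif TTCNNNGAA was found in the Fcgr1 window and in none of the other members' windows, against 7.02% of all promoters. The motif GAGGAA was thus present in genes that rose and in a gene that did not pass.

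The adaptors were by far the most abundant of the 9 genes and did not pass the test. Fcer1g encodes the common gamma chain that Fcgr1, Fcgr3 and Fcgr4 need for signalling, and Tyrobp encodes DAP12, which serves receptors such as the TREM family. By mean FPKM over all libraries, Tyrobp ranked 22 and Fcer1g 29 among the 12524 genes tested.

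Fcer1g (ENSMUSG00000058715, chr1:171229572-171234365, minus strand) stood at 1603, 2498, 1943 and 2206 FPKM in KO1 to KO4, against 1609, 1682, 2305 and 1961 FPKM in WT1 to WT4. The groups overlapped, and each group's lowest library was replicate 1. Its means were 2062 ± 381 FPKM in Nynrin-KO and 1889 ± 316 FPKM in WT (SD, n = 4 each), with a log2 fold change of 0.12 (95% interval -0.36 to 0.60, limma adjusted p = 0.705), which turned to -0.16 among the 5 libraries high in Gm10800. Tyrobp (ENSMUSG00000030579, chr7:30413760-30417585, plus strand) stood at 2595, 3403, 2358 and 3002 FPKM in KO1 to KO4, against 3090, 3030, 2644 and 3490 FPKM in WT1 to WT4. Here too the groups overlapped, and KO3 and WT3 were the lowest of their groups. Its means were 2839.5 ± 460 FPKM in Nynrin-KO and 3064 ± 346 FPKM in WT (SD, n = 4 each), a log2 fold change of -0.12 (95% interval -0.55 to 0.32, limma adjusted p = 0.688), which turned to 0.27 with quantile normalization. Neither interval reached a 2-fold change in either direction.

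Tyrobp exceeded Fcer1g in every library, with Fcer1g at 0.618 to 0.824 of the Tyrobp level in Nynrin-KO and 0.521 to 0.872 in WT. The Fcer1g mRNA level was also 3.92 to 6.17 times the summed FPKM of Fcgr1, Fcgr3 and Fcgr4 in Nynrin-KO and 3.40 to 8.05 times in WT. Other receptors that signal through Fcer1g, such as Clec4e, were left out of this sum. Both ratios overlapped between the groups.

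Syk encodes the kinase that docks on phosphorylated ITAMs, and it rose in Nynrin-KO. The gene (ENSMUSG00000021457, chr13:52583173-52648792, plus strand) stood at 19.4, 32.2, 16.9 and 29.2 FPKM in KO1 to KO4, against 7.94, 7.75, 7.70 and 12.1 FPKM in WT1 to WT4. The 3 lowest WT libraries lay close together and WT4 stood above them, still below each Nynrin-KO library. Syk had means of 24.4 ± 7.42 FPKM in Nynrin-KO and 8.88 ± 2.17 FPKM in WT (SD, n = 4 each), a log2 fold change of 1.34 (SE 0.25, limma adjusted p = 0.00556). The call was lost among the 5 libraries high in Gm10800, where the log2 fold change was 0.94 and the adjusted p = 0.0831, and it held with each library left out.

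Lyn encodes the SRC family kinase that phosphorylates ITAMs and also the ITIMs of inhibitory receptors. The gene (ENSMUSG00000042228, chr4:3678115-3813122, plus strand) stood at 54.8, 123, 79.8 and 101 FPKM in KO1 to KO4, against 42.9, 34.6, 35.3 and 52.1 FPKM in WT1 to WT4. The groups did not overlap, but KO1 was close to WT4. Lyn had means of 89.6 ± 29.2 FPKM in Nynrin-KO and 41.2 ± 8.17 FPKM in WT (SD, n = 4 each), a log2 fold change of 1.06 (SE 0.27, limma adjusted p = 0.0199). This was the least stable of the 4 calls: the limma adjusted p was 0.0530 without KO2, 0.0534 without KO4, 0.0557 without WT2 and 0.0698 without the filter on low values, and among the 5 libraries high in Gm10800 the log2 fold change was 0.71 (adjusted p = 0.179). Of the windows of 50 bases in the longest Lyn transcript, 21.8% recur in the pseudogene Gm11787 or the antisense gene Gm26857, so part of its reads may be shared, and Gm11787 stood at 1.79 ± 0.654 FPKM in Nynrin-KO and 1.39 ± 0.510 FPKM in WT (SD, n = 4 each).

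Btk encodes the TEC family kinase that activates phospholipase C gamma and lies on the X chromosome (ENSMUSG00000031264, chrX:134542336-134583570, minus strand). Its level was 23.8, 24.2, 17.2 and 31.3 FPKM in KO1 to KO4, against 30.6, 24.4, 16.9 and 24.7 FPKM in WT1 to WT4. The groups covered nearly the same range, with KO3 and WT3 lowest. The means of 24.1 ± 5.75 FPKM in Nynrin-KO and 24.1 ± 5.62 FPKM in WT (SD, n = 4 each) gave a log2 fold change of 0.00 with a 95% interval of -0.54 to 0.54.

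**Figure D4:**
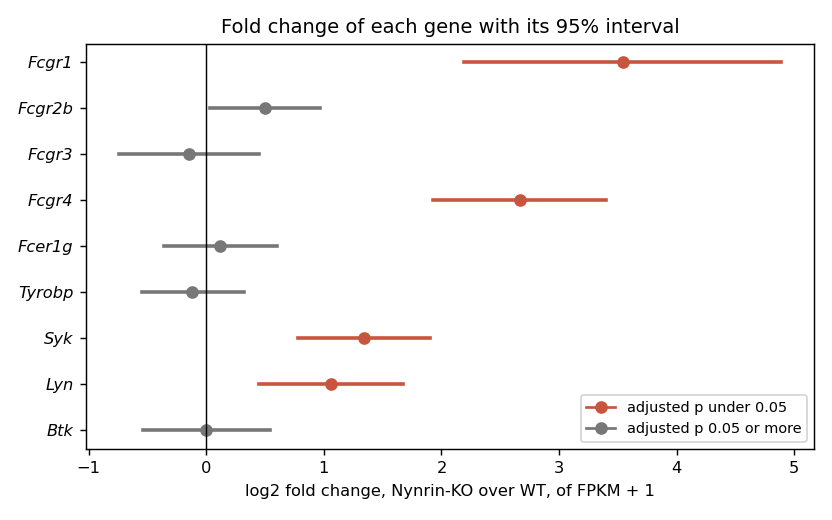
Log2 fold change (Nynrin-KO over WT, of FPKM + 1) of the 9 genes with 95% intervals from limma; red marks an adjusted p under 0.05. Fcgr1 (3.54), Fcgr4 (2.67), Syk (1.34) and Lyn (1.06) are past the threshold, and the other 5 lie between -0.15 and 0.50.

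The order of levels among the 9 genes was partly different in the groups. Tyrobp, Fcer1g and Fcgr3 led in both, and Fcgr3 lay below the lowest level of either adaptor. In Nynrin-KO they were followed by Lyn, Fcgr2b and Fcgr4, each of which overlapped its neighbour, and then by Syk, Btk and Fcgr1, whose ranges also overlapped. In WT the order went on with Fcgr2b and Lyn, which overlapped, then Btk, then Syk and Fcgr4, which overlapped, and last Fcgr1. In Nynrin-KO the means of Btk and Syk were 24.1 and 24.4 FPKM, while in WT Btk, at 16.9 to 30.6 FPKM, lay wholly above Syk, at 7.70 to 12.1 FPKM. Lyn stood at 2.82 to 4.71 times the Syk level in Nynrin-KO and 4.29 to 5.41 times in WT.

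Within the Nynrin-KO group KO2 and KO4 held the highest levels of Fcgr2b, Fcgr3, Fcgr4, Fcer1g, Tyrobp, Syk, Lyn and Btk, and KO2 also that of Fcgr1. These 2 libraries were also the deepest of the group and had the lowest share of Gm10800, at 0.221% and 0.263% of reads against 1.89% in KO1 and 8.38% in KO3. In WT this share was 0.401% in WT1 and 2.46% to 9.39% in the other 3. The part of depth and of Gm10800 in these differences was not tested.

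The rest of the pathway was described with 6 lists of genes written from general knowledge, with earlier results of these data known. Among all genes tested 14.0% were called as higher and 13.8% as lower in Nynrin-KO. Among other Fc receptors, 4 of 12 were tested and 2 rose. These were Ms4a2, the beta chain of the IgE receptor of mast cells and basophils, at 5.12 ± 2.1 FPKM in Nynrin-KO and 0.162 ± 0.153 FPKM in WT, and the B cell gene Fcrl1, at 4.89 ± 1.77 FPKM in Nynrin-KO and 1.38 ± 0.578 FPKM in WT (SD, n = 4 each). Ms4a2 passed the filter through the Nynrin-KO libraries alone. Fcgrt, which encodes the neonatal Fc receptor, was at 9.44 ± 3.21 FPKM in Nynrin-KO and 6.43 ± 0.817 FPKM in WT (limma adjusted p = 0.233). The median log2 fold change of the 4 tested was 0.86.

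The next list held mostly receptors that pair with ITAM adaptors, together with other signalling chains such as Cd79a, Cd79b, Cd247 and Hcst. It is called paired receptors and ITAM chains below, a name that is not exact for every member. Of 24 genes listed 16 were tested, and 11 of these rose and 0 fell, beside 14.0% and 13.8% among all genes tested. The median log2 fold change was 1.71 beside the -0.03 of all genes. The 6 with the smallest p were Cd300ld, Treml4, Clec4e, Clec4d, Cd79a and Pilrb1. Cd300ld stood at 33.4 ± 7.33 FPKM in Nynrin-KO and 4.78 ± 2.54 FPKM in WT, a log2 fold change of 2.65 (limma adjusted p = 0.00157). Clec4e, the receptor Mincle that signals through Fcer1g, stood at 40.6 ± 12 FPKM in Nynrin-KO and 11.7 ± 1.61 FPKM in WT, a log2 fold change of 1.68 (limma adjusted p = 0.0019). Cd79a, an ITAM chain of the B cell receptor, passed the filter through the Nynrin-KO libraries alone, at 4.75 ± 2.74 FPKM in Nynrin-KO and 0.365 ± 0.375 FPKM in WT (SD, n = 4 each). Trem3, which pairs with Tyrobp, was at 182 ± 72.5 FPKM in Nynrin-KO and 108 ± 43.0 FPKM in WT and did not pass (limma adjusted p = 0.171).

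Other SRC family kinases also rose. Of 8 listed SRC and SYK family genes, 2 were tested and both rose, beside 14.0% called as higher among all genes tested. Fgr, which encodes a kinase of mature myeloid cells, stood at 56.4 ± 17.0 FPKM in Nynrin-KO and 8.50 ± 4.91 FPKM in WT, a log2 fold change of 2.70 (SD, n = 4 each, limma adjusted p = 0.00253). Of 4 other TEC family genes 2 were tested, Tec and Bmx, and neither passed, with log2 fold changes of 0.86 and 0.48 (limma adjusted p = 0.0661 and 0.153, unadjusted p = 0.0207 and 0.0673). Tec was called with array weights, with voom, which also weighted the libraries, and with the replicate number as a block.

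Of 20 listed adaptors and effectors below SYK 17 were tested, 5 rose and 1 fell, beside the 27.9% called among all genes tested, and the median log2 fold change was 0.51. Pik3ap1, an adaptor for phosphoinositide 3-kinase, stood at 31.6 ± 8.12 FPKM in Nynrin-KO and 10.1 ± 2.98 FPKM in WT, a log2 fold change of 1.56 (limma adjusted p = 0.0034). Lat2, an adaptor of mast cells, B cells and myeloid cells, fell to 27.5 ± 8.79 FPKM in Nynrin-KO, against 78.4 ± 18.3 FPKM in WT, a log2 fold change of -1.50 (limma adjusted p = 0.00459). Lcp2, the adaptor SLP-76, stood at 49.4 ± 12 FPKM in Nynrin-KO and 25 ± 4.53 FPKM in WT (SD, n = 4 each, limma adjusted p = 0.0155), and Card9, Cblb and Sh3bp2 also rose. Plcg2, the phospholipase acted on by BTK, was at 37.9 ± 14.6 FPKM in Nynrin-KO and 29.0 ± 4.08 FPKM in WT and did not pass (limma adjusted p = 0.453).

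Among inhibitory receptors and phosphatases more genes rose than fell. Of 28 listed genes 25 were tested, 14 rose and 2 fell, beside 14.0% and 13.8% among all genes tested. The median log2 fold change was 1.04. The 6 with the smallest p were Pecam1 and Milr1, which fell, and Cd300a, Clec4a2, Ptprc and Pag1, which rose. Pecam1, an adhesion protein with ITIMs, stood at 9.93 ± 0.896 FPKM in Nynrin-KO and 33.4 ± 9.48 FPKM in WT, a log2 fold change of -1.62 (limma adjusted p = 0.00194). Ptprc, the phosphatase CD45 that activates SRC family kinases, stood at 174 ± 55.8 FPKM in Nynrin-KO and 50.2 ± 15.4 FPKM in WT, a log2 fold change of 1.76 (SD, n = 4 each, limma adjusted p = 0.00393). The phosphatases that act at ITIMs did not pass: Ptpn6 (SHP-1) was at 204 ± 81.5 FPKM in Nynrin-KO and 200 ± 42.8 FPKM in WT, and Inpp5d (SHIP-1) at 21.0 ± 6.10 FPKM in Nynrin-KO and 14.9 ± 1.44 FPKM in WT (SD, n = 4 each, limma adjusted p = 0.954 and 0.171).

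**Figure D5:**
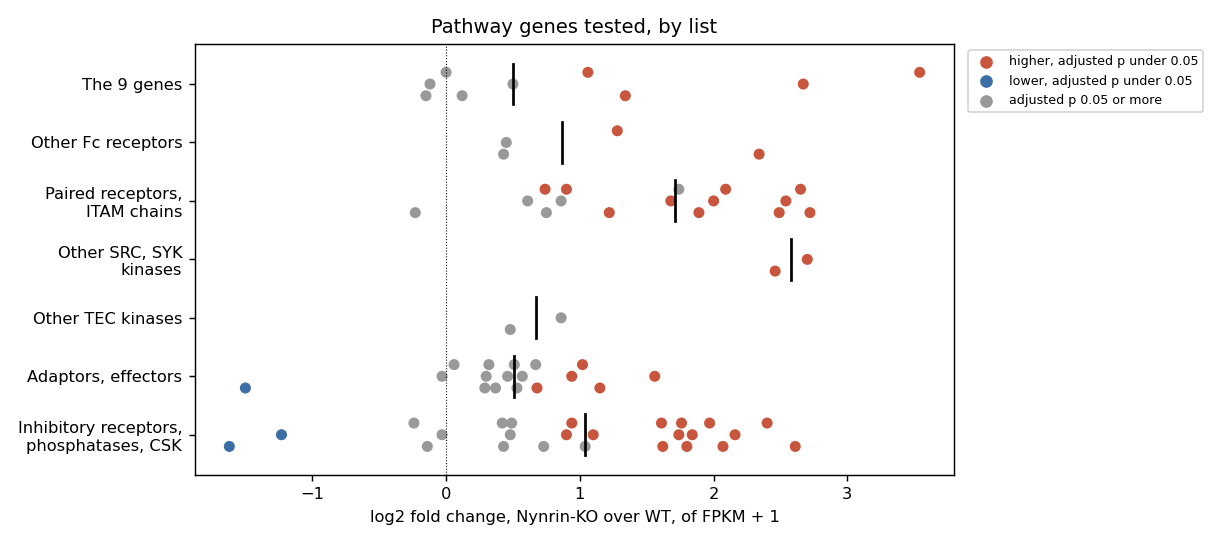
Log2 fold change (Nynrin-KO over WT, of FPKM + 1) of each tested gene, in a row for the 9 genes and a row for each pathway list; black bars are medians and colours give the call. The median is 0.50 for the 9 genes, 1.71 for the list of paired receptors and ITAM chains and 0.51 for adaptors and effectors.

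Lists of genes of other and more mature blood cells were examined beside the 9 genes. Their calls stand beside 14.0% called as higher and 13.8% as lower among all genes tested. Of 12 listed mature neutrophil genes 7 rose, while S100a8, S100a9, Ngp, Camp and Ltf did not pass. All 12 together, whose summed FPKM was mostly that of S100a8, S100a9, Ngp and Camp, took 19.9%, 8.66%, 14.6% and 14.2% of reads in KO1 to KO4, against 0.237%, 5.66%, 3.97% and 7.63% in WT1 to WT4. WT1 was lowest and WT4 highest among the WT libraries both in this share and in Fcgr4. Among the Nynrin-KO libraries KO2 was lowest in the share and highest in Fcgr1, Fcgr4, Syk and Lyn, and also in Fcer1g and Tyrobp. Of 12 monocyte and macrophage genes 6 rose, C1qa, C1qb, C1qc, Mrc1, Vcam1 and Apoe, of which Mrc1 entered the test through the Nynrin-KO libraries alone. The summed level of all 12, most of it Ly6c2, which did not pass (limma adjusted p = 0.476), was 1886.8 to 4249.5 FPKM in Nynrin-KO and 1327 to 2549.3 FPKM in WT. KO2 and WT4 held the highest sums of their groups and also their groups' highest levels of Fcgr1, Fcgr4, Syk and Lyn. The same 2 libraries were highest in Tyrobp, which did not pass, so this order was not particular to the genes that rose. The lowest sums were in KO1 and WT1. Of 7 mast cell and basophil genes 3 rose and 1 fell, with a summed level of 48.4 to 118 FPKM in Nynrin-KO and 10.3 to 14.3 FPKM in WT. The part of these and of the following cell types in the levels of the 9 genes was not tested.

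Of 5 listed erythroid genes 3 were tested and called, Hbb-bs, Hba-a1 and Car2, but each reached 1 FPKM in the Nynrin-KO libraries alone, so that their passing the filter already required a difference. The summed level of the 5 was 7.68 to 35.1 FPKM in Nynrin-KO and 0.202 to 2.07 FPKM in WT. Of 8 T and NK cell genes 2 were tested and rose, Nkg7 and Gzma, with a summed level of 113 to 231 FPKM in Nynrin-KO and 0.916 to 11.4 FPKM in WT, nearly all of it Nkg7, and Trac was at most 0.451 FPKM in Nynrin-KO and 0.545 FPKM in WT. Of 8 B cell genes 5 were tested and 2 called as higher, Cd79a and Vpreb3, both of which reached 1 FPKM in the Nynrin-KO libraries alone. The summed level of the 8 was 24.6 to 41.2 FPKM in Nynrin-KO and 21.4 to 27.8 FPKM in WT. Of 8 dendritic cell genes 5 were tested, of which 0 rose and 2 fell, Irf8 and Flt3, the latter also listed among the sorted cell markers. The median log2 fold change of the 5 was 0.28, so the list did not move in 1 direction. Irf8 stood at 37.6 ± 22.5 FPKM in Nynrin-KO and 120 ± 43.0 FPKM in WT. H2-Ab1 leaned the other way without passing, at 39.2 ± 18.4 and 17.3 ± 8.32 FPKM (SD, n = 4 each, limma adjusted p = 0.0996). The summed level of the 8 was 54.9 to 129 FPKM in Nynrin-KO and 99.5 to 237 FPKM in WT. None of the listed markers was at 0 in all 8 libraries. 

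Likeness to 4 of the genes was measured as the root mean square distance between log2(FPKM + 1) values over the 8 libraries, each centred on its mean, among 5197 named genes with a mean of at least 5 FPKM. Nearest to Fcgr4 were Cd300ld, Gsap and Fgr, at distances of 0.217, 0.220 and 0.245 on the log2 scale. Nearest to Syk were Nadk, Stk10 and Stk38, at 0.0931, 0.108 and 0.118, and nearest to Lyn were Dnase1l1, Hps3 and Orc4, at 0.117, 0.129 and 0.139. Nearest to Fcer1g were Katnbl1, Mia3 and Kif5b, at 0.101, 0.141 and 0.149, none of which passed the test. The distance includes the difference between the groups, so near genes have a like fold change. Those of Cd300ld, Gsap and Fgr were 2.65, 2.64 and 2.70 on the log2 scale, beside 2.67 for Fcgr4. Cd300ld and Fgr are both genes of the pathway lists, which were written with earlier results of these data known.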

How the data were processed

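The deposited table gives 1 value per gene and library. The authors' header names no unit. The deposited values were taken to be FPKM, since, multiplied by the longest GENCODE M21 transcript, they gave whole reads (within 0.1 read) for 99.42% to 99.54% of the values of at least 0.1 FPKM and under 200 reads, and 99.62% of gene identifiers were found in that annotation. Per the submitters' processing notes, the build was mm10 and the tools included Bowtie 0.12.9, Cufflinks 2.1.1 and HTSeq, without their roles; neither the counting rule nor any use of strand is stated there, so antisense reads cannot be told apart. The floor of 3 reads covers counting error only. An exact 0 here means that no read was recovered.

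Testing was limited to genes that reached 1 FPKM in 4 or more of the 8 libraries. The tool was limma 3.58.1 in R 4.3.3, and the values were log2(FPKM + 1), a scale that understates changes of low genes, with trend and robust estimation, genotype as the only term, two-sided, with Benjamini-Hochberg adjustment. The fit was tested on simulated data. The 9 genes and all lists were chosen with earlier results of these data known. Named genes were all 9, the called members of each list (the 6 with the smallest p where there were more, with values for up to 3), and the nearest 3 genes by profile. Fcgrt, Trem3, Tec, Bmx, Plcg2, Ptpn6, Inpp5d, Apoa2, Pcp4l1 and Gm11787, and the marker genes given with values, were named outside that rule after their values were seen. Some genes of the lists are counted but not reported by name here. Protein sequences were not used; the motifs were searched as codons. Alternatives covered pseudocounts (0.1, 0.5), filters, scaling, limma options, array weights and voom on recovered reads, always with quality weights of the libraries. They also covered the replicate block, libraries left out and a threshold of 0.01. Leaving out WT3 with KO3 was added after seeing the data. Python 3.11.15, numpy 2.4.6, pandas 2.3.3 and matplotlib 3.10.9 were used for tables and plots.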

Additional observations from a re-analysis of the deposited data

Results flagged for a closer look

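In 3 of the 18 sets of 4 values (9 genes in each group) the highest or lowest library lay farther from its nearest neighbour than Dixon's 95% limit for 4 values allows, and chance flags about 1 in 20 such sets. Fcgr1 was at 2.20 FPKM in WT4, against 0 to 0.328 FPKM in the other WT libraries. Syk was at 12.1 FPKM in WT4, against 7.70 to 7.94 FPKM in the other WT libraries. Fcgr3 was at 281 FPKM in WT3, the shallowest WT library, against 463 to 487 FPKM in the other WT libraries.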

How the results depend on the processing

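Of the 9 genes 4 were called, and the number was 3 to 4 with each library left out, 5 with quantile normalization, 3 without the filter and 1 among the 5 libraries high in Gm10800. Log2 fold changes reversed for Fcgr3 (0.53 with quantile normalization, 0.02 without KO3, in a range of -0.33 to 0.02 with each library left out), Tyrobp (0.27 with quantile normalization) and Fcer1g (-0.16 among the libraries high in Gm10800), and the cause was not tested. Of all genes tested 3488 were called, 2358 to 3606 with each library left out, 1698 without the filter, 1579 without WT1 and KO1, 994 among the libraries high in Gm10800 and 1454 at an adjusted p under 0.01, and voom on recovered reads called 4670. Leaving out WT1 and KO1, the libraries high in Gm10800 and the stricter threshold gave, in that order, 0, 1 and 1 calls among other Fc receptors (2 in the reported fit) and 9, 5 and 9 among inhibitory receptors and phosphatases (16). Libraries high in Gm10800 and the stricter threshold gave 5 and 7 calls among paired receptors and ITAM chains (11) and 1 and 2 among adaptors and effectors (6), which had 2 without the filter and 10 with array weights. SRC and SYK family kinases had 1 call among the libraries high in Gm10800 (2). TEC family kinases had 1 call with array weights, voom or the replicate block (0). With each library left out, calls were 1 to 2 among other Fc receptors, 7 to 11 among paired receptors and ITAM chains, 2 to 2 among SRC and SYK family kinases, 0 to 1 among TEC family kinases, 3 to 7 among adaptors and effectors and 14 to 17 among inhibitory receptors. Deviations from the group means correlated between same-numbered libraries at r = -0.213, -0.389, 0.329 and 0.008, and between libraries of different number at -0.474 to 0.532. Such deviations can also hold differences in depth and Gm10800, so they cannot show whether the numbers pair the libraries. With the replicate block 4 of the 9 genes and 2838 genes in all were called. Fcgr1 had few reads in WT, at most 98, and only 9 in WT1, the deepest library. Depth limits KO3 and WT3, and without KO3 and WT3 4 of the 9 genes were called.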
